A study of Homo sapiens with 24 samples.

Results

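The 37 genes encoded by the mitochondrial genome were examined in RNA-seq libraries of Cal33 and SAS, established human cell lines of HNSCC, a squamous cell carcinoma of the head and neck, labelled as tongue and wild type. Members were the rows on the mitochondrial chromosome whose gene name starts with MT-, which gave 37 of the 57820 genes in the tables: 13 messenger RNAs, 2 rRNAs and 22 tRNAs. Each line had 4 groups of 3 libraries: sham, GSK-J1 at 4.5 µM, a single dose of 4 Gy X-rays, and GSK-J1 with 4 Gy, with RNA taken after 24 h. GSK-J1 inhibits the histone demethylases UTX and JMJD3. No normal cells were among the samples, and each line stands for 1 tumour. The question for these genes was whether irradiation, the inhibitor or their combination changed the mitochondrially encoded RNAs, and whether the lines differed.

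Mitochondrial DNA is a small circle that is transcribed from both strands into long precursors. The heavy-strand transcript carries both rRNAs, 12 of the messenger RNAs and most tRNAs, and the light-strand transcript carries MT-ND6 and the remaining tRNAs. The tRNAs lie between the other genes and are cut out by RNase P at their 5′ ends and by ELAC2 at their 3′ ends, which frees the neighbouring messages. The messenger RNAs encode core subunits of the respiratory chain: MT-ND1 to MT-ND6 with MT-ND4L belong to complex I, MT-CYB to complex III, MT-CO1 to MT-CO3 to complex IV, and MT-ATP6 and MT-ATP8 to the ATP synthase, complex V. These subunits work together with nuclear-encoded ones, and the rRNAs MT-RNR1 and MT-RNR2 build the mitochondrial ribosome.

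The sequences of the members that bear most on the results are given first, from the GENCODE 29 transcripts, in which all 37 members have the starts, ends and strands of the tables. MT-ATP8 (MT:8366-8572, plus strand) and MT-ATP6 (MT:8527-9207, plus strand) share 46 bases, and MT-ND4L (MT:10470-10766) and MT-ND4 (MT:10760-12137) share 7. Both pairs are shown because a read that covers shared bases cannot be given to 1 of the genes, so their counts are not fully separate. MT-CO3 starts at MT:9207, the last base of MT-ATP6, and that pair is not shown. The last 70 bases of MT-ATP8, the first 70 of MT-ATP6, the last 40 of MT-ND4L and the first 40 of MT-ND4 follow, with the shared bases in capitals.
MT-ATP8 end: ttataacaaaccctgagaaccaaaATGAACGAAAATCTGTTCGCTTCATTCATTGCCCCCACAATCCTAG
MT-ATP6 start: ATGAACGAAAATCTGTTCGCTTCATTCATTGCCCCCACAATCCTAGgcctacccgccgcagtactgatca
MT-ND4L end: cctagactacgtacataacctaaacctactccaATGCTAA
MT-ND4 start: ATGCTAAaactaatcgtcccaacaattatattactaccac

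The tRNAs MT-TL1 (tRNA for leucine, MT:3230-3304, plus strand) and MT-TD (tRNA for aspartate, MT:7518-7585, plus strand) are shown whole because they had the largest differences between the lines. In capitals are the 7 bases at each end of the acceptor stem, the part at whose ends the precursor is cut, and all 7 pairs match when G-T pairs are allowed.
MT-TL1: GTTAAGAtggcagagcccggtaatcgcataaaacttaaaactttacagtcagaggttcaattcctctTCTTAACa
MT-TD: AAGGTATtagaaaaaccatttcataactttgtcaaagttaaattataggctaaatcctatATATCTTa

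Libraries held 54200036 to 96848227 counts on the strand of the gene, of which 2483960 to 9303392 belonged to the members. All 10 squamous epithelial markers had counts in every library. The epithelial markers summed to 6953 to 10508 CPM (counts scaled to a common TMM-adjusted library size) in Cal33 and 3320 to 4766 CPM in SAS. Markers of leukocytes, endothelium, fibroblasts, liver and muscle summed to 25.9 to 46.5 CPM in Cal33 and 5.35 to 15.7 CPM in SAS, with 1 to 4 of them at 0 in a library. Most of the Cal33 sum was COL1A1, with 22.7 to 43.2 CPM there and 1.49 to 4.12 CPM in SAS. Between the sham groups 1 of 7 such markers tested was called higher in Cal33 and 4 lower (edgeR), beside 54.5% of all genes called. The part of these markers in the line differences was not tested. Replicate 1 of GSK-J1 and replicate 1 of the combination in SAS contained RNA of 20 marker genes of Cal33, high there and near 0 in most SAS libraries, at 1.56% and 0.766% of their Cal33 level, whereas no other SAS library exceeded 0.00574%. Calls in SAS that rest on them are given with and without them. Nothing states that the replicates were separate cultures, so a p-value here covers the spread among these samples alone, which may be technical. In bulk RNA, fewer cells of a type and less RNA per cell cannot be told apart, and neither can fewer mitochondria and less RNA per mitochondrion.

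To begin with the level of the whole group, the members made up a larger part of the RNA in Cal33 than in SAS, and in Cal33 this part was lower after irradiation. In Cal33 the share of the library was 9.86, 10.06 and 10.01% in the sham replicates and 9.31, 10.00 and 9.52% under GSK-J1. It was 7.79, 6.76 and 7.21% after 4 Gy and 8.35, 6.23 and 5.43% after GSK-J1 with 4 Gy. All 6 irradiated libraries lay below all 6 that were not irradiated. The mean over both arms fell from 9.79% ± 0.309 to 6.96% ± 1.06 (SD, n = 6), a difference of -2.83 percentage points (exact permutation test within arms, two-sided, p = 0.005, adjusted p = 0.025 over 25 tests of shares), and p = 0.005 is the smallest that this test can give. With the replicate number as a block, which does not pair Cal33 sham, the adjusted p was 0.112 and the difference no longer passed (exact permutation test over 6 pairs, p = 0.03125, the smallest it can give). Leaving out any 1 of the GSK-J1 replicates brought the adjusted p to 0.05, with the difference at -2.91, -2.73 and -2.85 points without replicates 1, 2 and 3.

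In SAS the share was 3.65, 4.56 and 4.65% in the sham replicates, 3.97, 5.31 and 3.97% under GSK-J1, 4.36, 5.87 and 4.57% after 4 Gy, and 4.67, 6.03 and 4.47% after the combination. The groups overlapped throughout. Irradiation differed by 0.646 points (exact permutation test, p = 0.165, adjusted p = 0.458), from 4.35% ± 0.607 to 4.997% ± 0.750 (SD, n = 6). Within same-numbered pairs, which do pair in SAS, the share was higher after 4 Gy in 5 of 6, and this did not pass either (exact permutation test over pairs, p = 0.0625, adjusted p = 0.195). The 85 cytoplasmic ribosomal protein genes, another abundant group, took 10.3% ± 0.815 of the SAS sham libraries and 8.49% ± 0.438 after 4 Gy, and 4.38% ± 0.293 and 4.30% ± 0.116 in Cal33 (SD, n = 3). Their part in the shares of the members was not tested. GSK-J1 differed by 0.126 points in SAS (adjusted p = 0.864) and by -0.475 points in Cal33 (adjusted p = 0.507, exact permutation tests), so neither passed.

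Over all treatments the share was 8.38% ± 1.65 in Cal33 and 4.67% ± 0.733 in SAS (SD, n = 12), a difference of 3.70 points (permutation test within treatments over 160000 regroupings, adjusted p = 0.000156). The ranges of the lines overlapped through irradiated Cal33 libraries, with a lowest Cal33 value of 5.43% and a highest SAS value of 6.03%. In the plot of the shares the 2 lines stand apart under sham and GSK-J1, and the Cal33 points come down after 4 Gy.

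**Figure D1:**
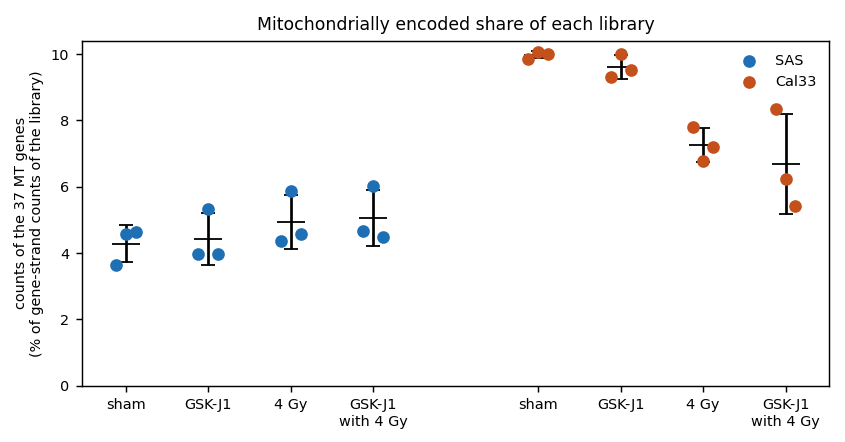
Share of the 37 mitochondrially encoded genes in the gene-strand counts of each library (percent, y axis) by line and treatment (x axis). Points are libraries, bars the mean and SD of 3 replicates, and the irradiated Cal33 libraries lie at 5.43 to 8.35%, below the others of that line at 9.31 to 10.06%.

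By class, complex IV messages held the largest part of the members' counts in Cal33, with 4.26% ± 0.0832 of the sham library, followed by complex I with 2.86% ± 0.0649, the rRNAs with 1.62% ± 0.205, complex V with 0.701% ± 0.0458 and complex III with 0.544% ± 0.153 (SD, n = 3). In SAS complex I came first, with 1.76% ± 0.301, before complex IV with 1.55% ± 0.197, and complex I was above complex IV in all 12 SAS libraries and in 0 of 12 in Cal33. The rRNAs took 0.407% ± 0.0610 there. After 4 Gy the Cal33 values were 2.91% ± 0.134 for complex IV, 2.25% ± 0.0989 for complex I and 0.433% ± 0.0555 for complex V, and 1.29% ± 0.327 for the rRNAs.

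**Figure D2:**
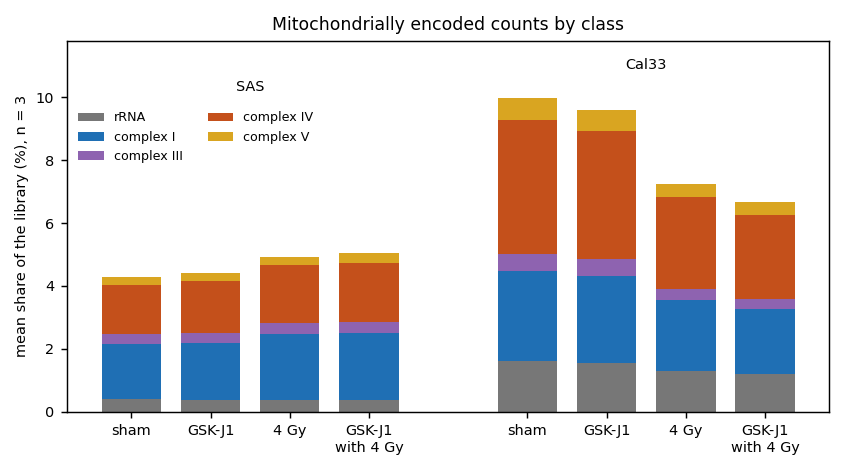
Stacked bars of the mean share of the library (percent, y axis, n = 3) taken by rRNAs and by the messages of complexes I, III, IV and V in each group (x axis), without the tRNAs. In Cal33 the stacks are lower in both irradiated groups, from 9.98% in sham to 7.25% after 4 Gy and 6.67% after the combination in total, and in SAS the totals lie between 4.28 and 5.06%.

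Within the members' counts, rRNAs took 17.0% ± 2.08 in Cal33 and 8.42% ± 2.18 in SAS (SD, n = 12, difference 8.55 points, permutation test, adjusted p = 0.000104). The libraries came from a stranded total RNA kit, and how far its rRNA removal reached mitochondrial rRNA is not given in the sources used here. The share of tRNA counts was 0.0197% ± 0.00528 in Cal33 and 0.0825% ± 0.00924 in SAS, a difference of -0.0628 points with the same adjusted p. Genes encoded on the light strand took 0.127% ± 0.0184 in Cal33 and 0.207% ± 0.0335 in SAS, a difference of -0.0802 points, again with an adjusted p of 0.000104. Counting without regard to strand turned this last difference to 0.211 points (adjusted p = 0.025, permutation test). None of the tests of irradiation or GSK-J1 passed for these 3 shares within a line, and the smallest adjusted p was 0.125, for the tRNA share after 4 Gy in Cal33 (exact permutation tests). Read per kilobase of exon, MT-CO2, a core subunit of cytochrome c oxidase, had the highest level in both lines, with 23160 ± 939 CPM per kilobase in Cal33 sham and 7193 ± 1034 in SAS sham. MT-ND4 followed with 11686 ± 799 and 6073 ± 1142 CPM per kilobase. MT-CO2 was above MT-ND4 in all 12 libraries of each line. MT-ND6 was the lowest of the messenger RNAs, with 231 ± 16.2 CPM per kilobase in Cal33 sham and 162 ± 18.1 in SAS sham.

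Irradiation was then tested gene by gene. In Cal33, 34 of the 37 members had a mean of at least 1 count and were tested (MT-TR, MT-TS2 and MT-TL2 were not). After 4 Gy against sham, 5 of 34 were called, all lower (edgeR quasi-likelihood test, adjusted p under 0.05): MT-CO2, MT-ATP8, MT-ATP6, MT-CO3 and MT-ND6. Over all 24351 genes, 6.27% were called, and 2.81% in the lower direction. The 12 heavy-strand messages included 11 with a negative fold change and a median log2 fold change of -0.52, beside a median of 0.01 over all genes tested. The groups did not overlap for 14 members, 13 of them lower, whereas 25.9% of all genes did not overlap and 12.9% did so in the lower direction.

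MT-CO2 had 16275, 16146 and 15103 CPM in the sham replicates and 9631, 11214 and 12268 CPM after 4 Gy. All 3 irradiated values lay below the sham values. The log2 fold change was -0.51 ± 0.12 (SE), a fold of 0.704, with an adjusted p of 0.0283 (edgeR). For the complex V messages the 3 irradiated values again lay below sham. MT-ATP6 had 5328, 5681 and 6025 CPM in sham and 3941, 3453 and 2994 CPM after 4 Gy (log2 fold change -0.70 ± 0.18, adjusted p = 0.0404, edgeR). MT-ATP8, its overlapping neighbour, had 848, 1005 and 966 CPM in sham and 693, 575 and 547 CPM after 4 Gy, at a log2 fold change of -0.62 ± 0.17 (adjusted p = 0.0463, edgeR).

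MT-CO3, a core subunit of complex IV, had 7982, 8673 and 8140 CPM in sham and 6066, 4989 and 5185 CPM after 4 Gy (log2 fold change -0.60 ± 0.15, adjusted p = 0.0377, edgeR). MT-ND6, the only message on the light strand, had 112, 124 and 128 CPM in sham and 77.4, 94.3 and 85.7 CPM after 4 Gy (log2 fold change -0.48 ± 0.11, adjusted p = 0.0219, edgeR). The other 4 are carried by the heavy-strand transcript. MT-CO1 had a log2 fold change of -0.55 ± 0.19 and MT-CYB of -0.58 ± 0.22, but with adjusted p of 0.107 and 0.131 neither passed (edgeR).

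The other complex I messages were also not called, with log2 fold changes of -0.42 for MT-ND4 and -0.33 for MT-ND5. MT-ND1, which comes directly after MT-TL1 on the map, was the only message with a positive value, 0.41 ± 0.24 (adjusted p = 0.335, edgeR), from 1335, 1946 and 1022 CPM in sham to 1938, 1462 and 2292 CPM after 4 Gy, so that its groups overlapped. The rRNAs had log2 fold changes of -0.04 for MT-RNR1 and -0.35 for MT-RNR2, and their groups overlapped. Of the 19 tRNAs tested none was called, with 8 positive and 11 negative values.

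The count in Cal33 rested on single libraries. It was 0 without 4 Gy replicate 1, 1 without 4 Gy replicate 2 or 3 or without any sham replicate, 2 without any GSK-J1 replicate, 3 without replicate 2 of the combination and 8 without its replicate 1. With only the 2 groups compared in the fit it was 3. The shares of all genes called in these refits are not given. With libraries left out in turn, the log2 fold change ranged from -0.59 to -0.41 for MT-CO2 and from -0.79 to -0.60 for MT-ATP6. For MT-ATP8 it was -0.72 to -0.55, for MT-CO3 -0.68 to -0.54 and for MT-ND6 -0.56 to -0.41.

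The second test of irradiation, GSK-J1 with 4 Gy against GSK-J1, uses none of these 6 libraries but the same fit for the spread. The same 5 members were called lower, out of 34, against 5.11% of all genes called and 2.07% called lower. MT-CO2 had 14647, 16670 and 15542 CPM under GSK-J1 and 11222, 10605 and 9364 CPM with 4 Gy added (log2 fold change -0.57 ± 0.12, adjusted p = 0.0189, edgeR). The other 4 had values of -0.73 for MT-ATP8, -0.70 for MT-ATP6, -0.61 for MT-CO3 and -0.40 for MT-ND6, with adjusted p from 0.0287 to 0.0498. MT-CYB had -0.76 ± 0.22 (adjusted p = 0.0639, edgeR) and was not called. The groups did not overlap for 12 members, all lower, against 26.1% of all genes and 13.5% in that direction.

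Same-numbered replicates deviated together in these 2 groups. With the replicate number as a block the count rose to 7, with MT-CO1 (log2 fold change -0.62, adjusted p = 0.0330) and MT-CYB (-0.75, adjusted p = 0.0490) added, against 8.67% of all genes, 3.63% in the lower direction. A fit of the 6 libraries alone with the block gave 13, all lower (edgeR), against 18.4%, 8.37% in the lower direction. Without a block and with these 6 libraries alone it was 1. The count was 0 without replicate 3 of the combination or replicate 2 or 3 of GSK-J1, and 1 without replicate 2 of the combination. It was 2 without GSK-J1 replicate 1 or 4 Gy replicate 3, and 3 without 4 Gy replicate 2 or without sham replicate 2 or 3. The shares of all genes called in these refits are not given. With libraries left out in turn, the log2 fold change was -0.63 to -0.50 for MT-CO2, -0.94 to -0.55 for MT-ATP8 and -0.95 to -0.51 for MT-ATP6. For MT-CO3 it was -0.84 to -0.48 and for MT-ND6 -0.44 to -0.34.

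In SAS 36 members were tested (MT-TS2 was not). None was called after 4 Gy against sham, while 7.08% of all genes were called (edgeR). DESeq2 called 0 members as well, beside 2845 of all 23416 genes. An unadjusted p under 0.05 was reached by 0 members and by 5476 of all 23416 genes (edgeR). Of 36 members 22 had a positive log2 fold change, with a median of 0.10. MT-CO2 had 4143, 5526 and 5091 CPM in sham and 5087, 6641 and 5163 CPM after 4 Gy, a log2 fold change of 0.19 ± 0.17 with overlapping groups. MT-ND4 had the highest value of the messages, 0.33 ± 0.19 (adjusted p = 0.338, edgeR).

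Here the replicate numbers paired the samples in every group. With the number as a block, MT-CO1 (0.24 ± 0.08, adjusted p = 0.0477) and MT-ND4 (0.32 ± 0.09, adjusted p = 0.0218) were called higher by edgeR, which is 5.56% of the 36 members against 24.5% of all genes, 11.3% in the higher direction. Without the 2 libraries that held Cal33 transcripts the block called 1, MT-ND4 (0.33 ± 0.09, adjusted p = 0.0241), against 20.8% and 9.69%. For GSK-J1 with 4 Gy against GSK-J1 none was called without the block, against 4.42% of all genes called. An unadjusted p under 0.05 was reached by 3 of 36 members and by 4899 of all 23416 genes (edgeR). Of the 36 values 30 were positive, with a median of 0.21. The block called 4 higher, MT-ND4L and the tRNAs MT-TQ, MT-TE and MT-TP, 11.1% of the members against 21.5% of all genes, 10.4% in the higher direction. Fitting these 6 libraries alone with the block gave 8 higher, against 20.2% and 10.1% in that direction. Without the 2 libraries the block called 1, MT-TA (0.97 ± 0.27, adjusted p = 0.0389), against 10.0% of all genes and 4.88% higher. In the libraries of the 2 groups alone it then called 7 higher, against 15.7% and 8.01%. The count without a block stayed 0 for both comparisons.

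**Figure D3:**
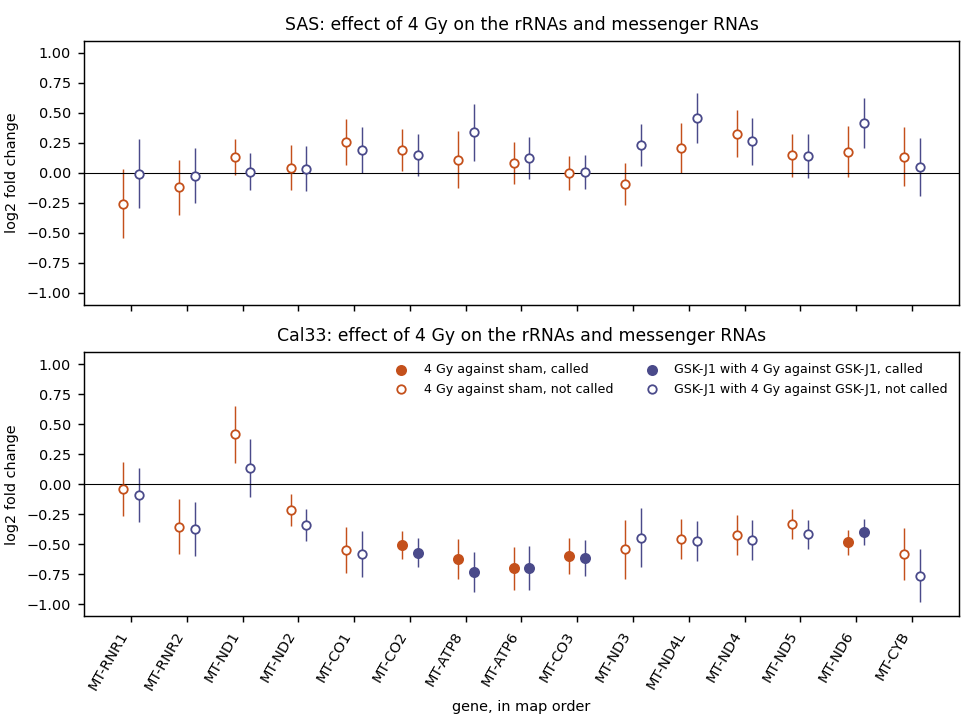
Log2 fold change (y axis) of the 13 messages and 2 rRNAs in map order (x axis) for 4 Gy against sham and for the same under GSK-J1, in SAS (top) and Cal33 (bottom). Bars are the SE of the edgeR fit and filled points were called; in Cal33 all messages but MT-ND1 lie below 0, and in SAS most lie above 0.

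The difference between the lines in the 4 Gy effect was tested for each member in a fit of all 24 libraries. Of 35 members 0 were called, against 0.427% of all genes (edgeR). DESeq2 also gave 0 members, beside 439 of all 24597 genes. An unadjusted p under 0.05 was reached by 11 of the 35 and by 2466 of all 24597 genes (edgeR). With the block, whose numbers pair the SAS samples but leave Cal33 sham unpaired, 5 were called (against 2.57% of all genes, 1.02% in that direction), all with a more negative effect in Cal33: MT-CO1, MT-CO2, MT-ATP6, MT-CO3 and MT-ND4. Without the 2 SAS libraries 3 were called, MT-CO1, MT-CO2 and MT-ND4, against 1.78% of all genes and 0.693% in that direction.

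In the fits without a block GSK-J1 gave no call among the members in either line, without irradiation or under it, and of 23416 genes tested in SAS and 24351 in Cal33 not 1 was called by edgeR (0.0% of all genes, with 486 and 215 at an unadjusted p under 0.05 against sham). DESeq2 called 3 genes under GSK-J1 in SAS and 0 in Cal33, none of them a member. With the block over all groups of SAS, 10 genes were called under GSK-J1 (0.0427% of all genes), of which 0 were members. In Cal33, 30 of 34 values were negative against sham with a median log2 fold change of -0.12, and in SAS 25 of 36 with a median of -0.11. At an unadjusted p under 0.05 stood 1 member in Cal33 and 0 in SAS. That one was MT-ND6, with 112, 124 and 128 CPM in sham and 92.6, 93.5 and 94.6 CPM under GSK-J1 (log2 fold change -0.37 ± 0.11, adjusted p = 1, edgeR). Under irradiation MT-ND6 went from 85.8 ± 8.47 to 70.01 ± 5.03 CPM (SD, n = 3, log2 fold change -0.29 ± 0.11, adjusted p = 1, edgeR). Its 4 group means in Cal33 were thus 121 CPM in sham, 93.5 under GSK-J1, 85.8 after 4 Gy and 70.01 after both. The interaction of both treatments gave 0 calls among the members in each line (edgeR and DESeq2). An unadjusted p under 0.05 was reached by 1 member in SAS and 0 in Cal33, beside 399 of 23416 and 209 of 24351 genes (edgeR).

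The blocked fit of the 6 libraries compared, chosen after the data were seen, called 1 member under GSK-J1 in SAS, MT-RNR1 (-0.32 ± 0.07, adjusted p = 0.00466, edgeR), against 2.59% of all genes, 1.83% in the lower direction. Without the SAS library that held Cal33 transcripts MT-RNR1 had -0.17 ± 0.07 (adjusted p = 0.386) and was not called, and 1 other member was, MT-TT (-0.71 ± 0.19, adjusted p = 0.0175), against 1.67% and 1.34% lower. For GSK-J1 with 4 Gy against 4 Gy it called 5 members in SAS, 4 higher, against 7.98% of all genes and 4.47% higher, and 3 in Cal33, MT-TL1, MT-ND1 and MT-ND6, all lower, against 0.515% and 0.288% lower. In SAS this included MT-ND4L (0.22 ± 0.04, adjusted p = 0.000462) and MT-ND3 (0.21 ± 0.04, adjusted p = 0.000598, edgeR). Without the library that held Cal33 transcripts 5 were called, 4 of them higher, against 3.41% of all genes and 1.85% higher, with MT-ND4L at 0.25 ± 0.05 and MT-ND3 at 0.26 ± 0.05.

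The untreated lines differed in most members, as they did in most of all genes tested. Of the 35 tested in the sham groups, 23 were called, 14 higher and 9 lower in Cal33 (edgeR), against 54.5% of all genes, 27.2% in each direction. DESeq2 also called 23, beside 13215 of all 24597 genes. The sham groups did not overlap for 24 members, against 57.6% of all genes. The rRNAs were the highest: MT-RNR1 had 1784 ± 321 CPM in Cal33 and 492 ± 208 in SAS (SD, n = 3, log2 fold change 1.86 ± 0.29, adjusted p = 1.16e-05, edgeR), and MT-RNR2 had 13496 ± 1753 and 3896 ± 507 CPM (1.79 ± 0.25). The groups did not overlap for either. Among the messages MT-CO2 had 15841 ± 643 CPM in Cal33 and 4920 ± 707 in SAS, a log2 fold change of 1.69 ± 0.16 (adjusted p = 7.99e-09, edgeR), MT-ND5 had 1.33 and MT-ATP6 1.31.

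On the map between the rRNAs and MT-CO1 the heavy-strand members, MT-TL1, MT-ND1, MT-TI, MT-TM, MT-ND2 and MT-TW, were all called lower in Cal33. The light-strand tRNAs of this run were not: MT-TC (1.18 ± 0.30, adjusted p = 0.00210) and MT-TY (1.20 ± 0.44, adjusted p = 0.0244, edgeR) were called higher, and MT-TQ (0.54), MT-TA (0.45) and MT-TN, which had 0 to 6 counts in a library, were not called. MT-ND1 had 1434 ± 470 CPM in Cal33 and 3664 ± 425 in SAS (log2 fold change -1.35 ± 0.21, adjusted p = 1.45e-05, edgeR), and MT-ND2, the next message, had -0.46 ± 0.17 (adjusted p = 0.0239), with overlapping groups. Of the heavy-strand tRNAs there, MT-TL1, whose sequence is given above, had 1.93, 4.61 and 1.89 CPM in Cal33 sham and 22.3, 22.7 and 27.3 CPM in SAS sham, a log2 fold change of -3.11 ± 0.28 (adjusted p = 4.18e-09, edgeR). MT-TI had -1.30, MT-TM -1.32 and MT-TW -1.44, all called. Farther along, MT-TD had 13, 11 and 10 counts in Cal33 sham and 170, 113 and 187 in SAS sham, a log2 fold change of -3.93 ± 0.38 (adjusted p = 1.31e-08, edgeR). Neither overlapped.

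The tRNA counts were small, and mature tRNAs are shorter than the fragments such libraries keep. Per library MT-TL1 had 146 to 2689 counts, while MT-TS2 had 0 to 3, MT-TR 0 to 7 and MT-TL2 0 to 8. Leaving out each library in turn gave 16 to 23 calls between the lines. Scaling by total counts raised the median log2 fold change of all genes from 0.02 to 0.21. Then 21 members were called, 14 higher and 7 lower, with MT-ND2 and MT-TE no longer called. Of all 24597 genes, 13505 were called with that scaling, 8160 higher and 5345 lower. Without the 2 SAS libraries that held Cal33 transcripts 22 members were called. The shares of all genes called in that fit and with libraries left out in turn are not given.

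**Figure D4:**
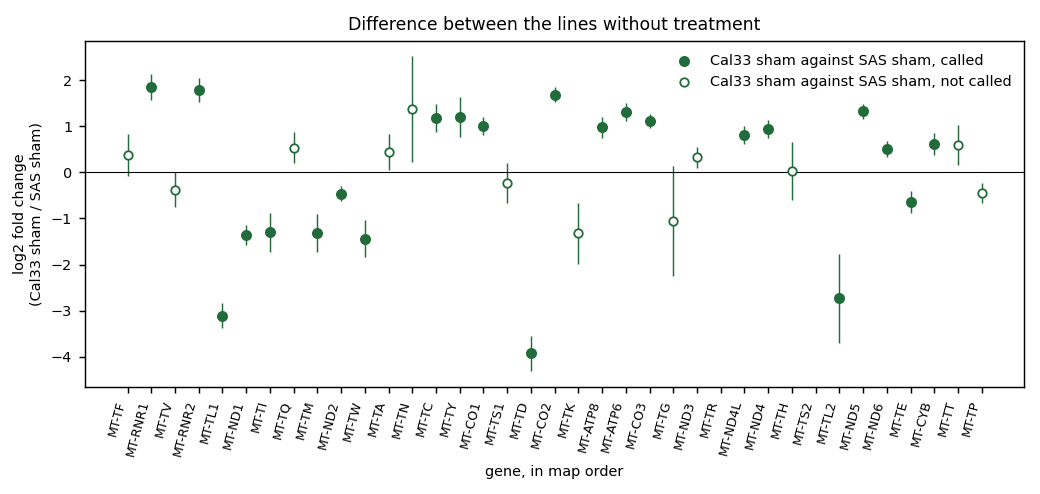
Log2 fold change of Cal33 sham over SAS sham (y axis) for the members tested, in map order (x axis), with the SE of the edgeR fit and called members filled. The rRNAs lie near 1.8, MT-TL1 to MT-TW lie mostly below 0, most messages from MT-CO1 onward lie above 0, and MT-TL1 and MT-TD are the lowest at -3.11 and -3.93.

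Strand matters for these genes because both strands of the circle are transcribed. In the libraries 2.31 to 3.51% of the members' stranded counts lay on the strand opposite to the gene, against a median of 0.175% over the 100 most abundant nuclear genes. The share was 2.81% ± 0.354 in Cal33 and 2.85% ± 0.167 in SAS (SD, n = 12, permutation test, adjusted p = 0.856). Among the messages MT-ND6 was the highest, with 90.5 to 93.3% of its stranded counts on the opposite, heavy strand in Cal33 and 79.2 to 86.9% in SAS. The light-strand tRNAs MT-TC, MT-TY, MT-TS1, MT-TN and MT-TP had 92.5 to 100% of theirs there. The MT-ND5 message is known to run on across the MT-ND6 region. In Cal33 sham the counts opposite to MT-ND6 came to 1263, 1445 and 1222 CPM, beside the 112, 124 and 128 CPM of the gene itself. In SAS sham they came to 395, 489 and 414 CPM. Which heavy-strand RNA these counts came from was not tested.

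The opposite-strand counts of MT-ND6 were called lower in Cal33 under GSK-J1 with 4 Gy against GSK-J1 (1080, 1297 and 1310 CPM against 896, 874 and 777 CPM, log2 fold change -0.52 ± 0.12, adjusted p = 0.0418, edgeR), where 0.979% of all genes were called on that strand, 0.328% lower. It was the only opposite-strand call without a block over the 10 comparisons within lines, and the lines were not tested against each other gene by gene on that strand. MT-ND1 had 1.17 to 3.83% on the opposite strand in Cal33 and 0.174 to 0.395% in SAS, and the ranges did not overlap. The share of all genes whose opposite-strand ranges do not overlap between the lines is not given. Such ranges therefore cannot be read as a result about the members. Counting without regard to strand turned the line difference of several tRNAs: MT-TI became 0.27, MT-TW 0.29, MT-TL2 0.57, MT-TC -0.56 and MT-TY -1.08. Of these only MT-TC (adjusted p = 0.0149) and MT-TY (adjusted p = 4.58e-06) were then called, and the others had adjusted p of 0.0921 to 0.673 (edgeR).

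**Figure D5:**
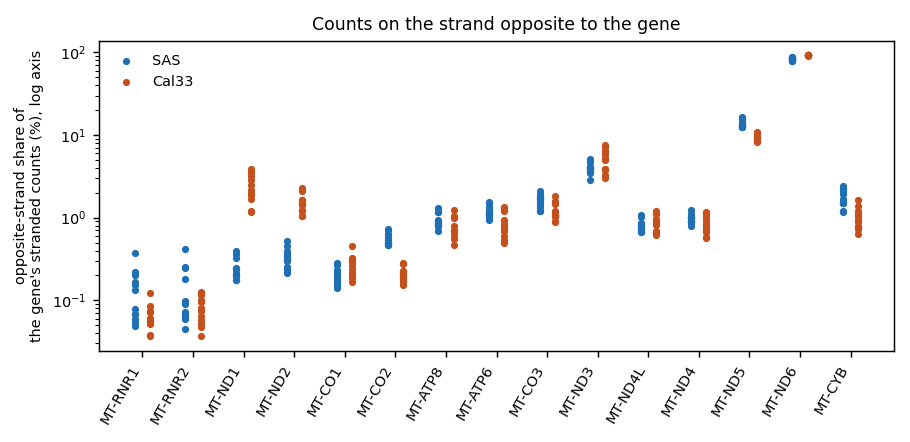
Share of each gene's stranded counts that lie on the opposite strand (percent, log y axis) for the messages and rRNAs in map order (x axis), 1 point per library. MT-ND6 lies at 79.2 to 93.3% in both lines, and MT-ND1 lies at 1.17 to 3.83% in Cal33 and 0.174 to 0.395% in SAS. The ranges of MT-ND2, MT-CO2, MT-ND5 and MT-ND6 also do not overlap between the lines. The share of all genes with such ranges is not given.

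Finally, nuclear genes that make, process or maintain mitochondrial RNA and DNA were read from lists, which were chosen with earlier results of these data known. After 4 Gy in Cal33, 1 of 38 tested genes for mitochondrial transcription and RNA processing was called (higher), 1 of 19 for maintenance of mitochondrial DNA (higher) and 1 of 12 biogenesis regulators (lower), against 6.27% of all genes. The list medians were 0.07, 0.05 and -0.06 on the log2 scale beside 0.01 for all genes. The lower gene was PPARGC1A, the coactivator PGC-1α that drives mitochondrial biogenesis, which had 33.0, 27.6 and 21.5 CPM in sham and 5.04, 12.98 and 9.27 CPM after 4 Gy (log2 fold change -1.57 ± 0.38, adjusted p = 0.0334, edgeR). Its groups did not overlap. Under GSK-J1 it had 20.4, 33.7 and 22.3 CPM, and with 4 Gy added 4.15, 12.4 and 8.32 CPM (-1.60 ± 0.39, adjusted p = 0.0336, edgeR). Called in that second comparison were also NRIP1, a nuclear receptor corepressor (0.49 ± 0.12, higher), MTERFD3, of the mitochondrial termination factor family (-0.57 ± 0.13, lower), PNPT1 (0.88 ± 0.18) and TYMP (2.34 ± 0.50), against 5.11% of all genes.

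In SAS PPARGC1A was near absent, with 0 to 2 counts in 10 of the libraries, and 31 and 9 counts in the 2 that held Cal33 transcripts. PNPT1, the polynucleotide phosphorylase that helps degrade mitochondrial RNA, was called higher after 4 Gy in both lines: 36.8, 56.2 and 46.8 CPM in Cal33 sham and 74.5, 79.2 and 101 CPM after 4 Gy (0.88 ± 0.18, adjusted p = 0.0165, edgeR), and 79.0, 74.6 and 91.7 CPM in SAS sham and 105, 107 and 116 CPM after 4 Gy (0.42 ± 0.08, adjusted p = 0.0119). TYMP, thymidine phosphorylase, was called higher after 4 Gy in Cal33 (2.08 ± 0.50, adjusted p = 0.0303, edgeR).

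In SAS 4 of 38 genes for transcription and processing were called after 4 Gy, all higher: PNPT1, SLIRP, which stabilises mitochondrial messages (0.46 ± 0.08), TFB2M, a mitochondrial transcription factor (0.30 ± 0.08), and ELAC2 (0.28 ± 0.08), beside 7.08% of all genes. Of the 77 mitochondrial ribosomal protein genes tested, 4 were called higher in SAS, MRPL33 (0.37), MRPS23 (0.37), MRPL18 (0.31) and MRPS11 (0.28), and 0 in Cal33. MFN2, which fuses mitochondria, was called higher in SAS (0.25 ± 0.07, adjusted p = 0.0441, edgeR). Without the 2 libraries that held Cal33 transcripts only SLIRP, PNPT1 and MRPL33 of these were still called, with MFN2 at an adjusted p of 0.0625 and the other 5 at 0.0618 to 0.0845.

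For GSK-J1 with 4 Gy against GSK-J1 in SAS, PNPT1 (0.51), REXO2, a mitochondrial oligoribonuclease (0.34), SLIRP (0.32) and TRMT10C, a subunit of mitochondrial RNase P (0.36), were called higher, against 4.42% of all genes. None of these 4 was called without the 2 libraries (adjusted p from 0.0672 to 0.223, edgeR). Under GSK-J1 no listed gene was called without a block.

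Between the sham groups the lists held calls in both directions, beside 54.5% of all genes called. Of 38 genes for transcription and processing, 6 were higher and 11 lower in Cal33, of 19 for maintenance 5 and 8, of 12 biogenesis regulators 3 and 6, and of 77 mitochondrial ribosomal protein genes 27 and 20. Those with the smallest p in the first list were TBRG4, which stabilises mitochondrial messages (0.93 ± 0.11, higher), and MTERFD2 (-0.94), TFAM, which packages mitochondrial DNA (36.7 ± 8.64 against 80.9 ± 19.7 CPM, -1.14 ± 0.18), PDE12 (-0.78) and PNPT1 (-0.81), all lower. For maintenance they were TOP1MT, the mitochondrial topoisomerase (-2.21 ± 0.12), C10orf2, the helicase Twinkle (-0.98), and POLG2, the accessory subunit of the mitochondrial polymerase (-0.87), all lower, and MFN2 (1.16) and TYMP (6.12), both higher. Among the regulators PPARGC1A, near absent in SAS, and PPARGC1B (1.98 ± 0.18) were higher, and YY1 (-0.69), SIRT1 (-1.04) and CREB1 (-0.66) were lower. For the mitochondrial ribosome they were MRPS25 (-1.51), MRPS30 (-1.48), MRPL36 (-1.22) and MRPS31 (-0.72), lower, and MRPL28 (0.92), higher.

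Nuclear copies of mitochondrial DNA had counts that came to 0.721 to 1.03% of those of the members. Most of these counts were of MTATP6P1, with 396 to 912 CPM in Cal33 and 296 to 469 CPM in SAS. Of the 188 copies known by name, 10 to 12 were tested. MTATP6P1 was called lower after 4 Gy in Cal33 (516 against 803 CPM, log2 fold change -0.62 ± 0.17, adjusted p = 0.0489, edgeR), as MT-ATP6 was, and in the second comparison of irradiation (-0.68 ± 0.17, adjusted p = 0.0409). Reads of such near-identical copies can be split or exchanged in counting, so neither value is fully separate from the other.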

How the data were processed

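Raw read counts per gene, as the authors deposited them for each of the 24 libraries, were used without normalization by the authors. Per the submitters' processing notes, reads were aligned to hs37d5 with STAR 2.5.3a, handled with SAMtools 1.6 and counted with featureCounts of Subread 1.5.1. The gene-strand counts served as the main measure, with opposite-strand and unstranded counts beside them. Whether reads overlapping more than 1 gene were counted is not given in the sources used here, which bears on overlapping members and near-identical nuclear copies. Columns of the authors' own FPKM and TPM were not used.

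Testing took genes averaging 1 count or more over the libraries fitted with edgeR 4.0.16 in R 4.3.3 (TMM, quasi-likelihood, group means, Benjamini-Hochberg, called under 0.05), per line or over all 24 libraries for comparisons of the lines. DESeq2 1.42.0 was an alternative. Scripts were tested on simulated data. Shares were tested by exact permutation over libraries within the other factor. Libraries held 54200036 to 96848227 counts, and the tRNAs, with few counts each, carry a large counting error. Replicate numbers came from the labels. Same-numbered libraries deviated together in every pair of SAS groups (lowest r = 0.305 over 18218 genes). They also did so among the GSK-J1, 4 Gy and combined Cal33 groups (lowest r = 0.162), while Cal33 sham did not pair by number (lowest r = -0.61). Complex III took 3.67% of the members' counts in Cal33 sham replicate 3. It took 4.37, 3.68 and 3.80% in replicate 1 of GSK-J1, 4 Gy and the combination, and 5.44 to 6.57% in the other Cal33 libraries. Whether Cal33 sham pairs under other numbers was not tested. Alternatives were other scalings, filters, unstranded counts, groups compared only, the replicate block, libraries left out in turn, and leaving out the 2 SAS libraries with Cal33 transcripts, with and without the block. The members, lists and tests were chosen with earlier results of these data known. Values are given for the messages and rRNAs, and for the nuclear lists for called genes, at most 5 per list and comparison, those with the smallest p. Lists without a call are given as counts, and nuclear copies mostly so.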

Additional observations from a re-analysis of the deposited data

Results flagged for a closer look

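The effect of 4 Gy on the log2 share of the mitochondrially encoded genes differed between the lines by -0.70 (Cal33 minus SAS), from -0.51 ± 0.24 in Cal33 to 0.20 ± 0.13 in SAS (SD over 6 same-numbered pairs per line, exact permutation test over the regroupings of the pairs, two-sided, p = 0.00216). The share was lower after irradiation in 6 of 6 Cal33 pairs and higher in 5 of 6 SAS pairs. This difference between groups was tested after the data were seen, and the replicate numbers do not pair the Cal33 sham libraries. The p of 0.00216 is the smallest that this permutation test can give. The test treats the pairs as independent, but each replicate number enters 1 pair without GSK-J1 and 1 with it. Same-numbered SAS libraries deviated together across these arms (r from 0.71 to 0.852 between GSK-J1 and sham), so the p may be too small. Without the SAS pair that holds Cal33 transcripts the difference was -0.70 (p = 0.00433, exact permutation test).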

How the results depend on the processing

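Of 205 alternatives to the 38 counts and shares, libraries left out in turn aside, 181 kept their direction and their side of the threshold or stayed within 1.5 times the count, and 24 did not. With the replicate block the Cal33 share difference after 4 Gy was -2.83 points with an adjusted p of 0.112 (exact permutation test over pairs, p = 0.03125, the smallest it can give). The block gave 2 calls for 4 Gy in SAS and 4 for the combination against GSK-J1 in SAS, and 5 for the line difference of the 4 Gy effect. On the opposite strand it gave 13 calls over the 10 comparisons within lines. The share of all genes called on that strand with the block is not given, so the 13 cannot be read as a result about the members. With the block and only the groups compared, chosen after seeing the data, the SAS counts were 2 for 4 Gy, 1 for GSK-J1, 5 for the combination against 4 Gy and 8 against GSK-J1, and the Cal33 counts were 3 against 4 Gy and 13 against GSK-J1. The block without the 2 SAS libraries with Cal33 transcripts, also chosen after seeing the data, gave 1 call for 4 Gy and 1 for the combination against GSK-J1 in SAS and 3 for the line difference, and with only the groups compared 1 for GSK-J1, 5 for the combination against 4 Gy and 7 against GSK-J1. Without a block, only the groups compared gave 3 calls for 4 Gy and 1 for the combination against GSK-J1 in Cal33. Counting without regard to strand turned the tRNA share under GSK-J1 in Cal33 to 0.00118 points, and the light-strand share to -0.02 for 4 Gy and -0.0415 for GSK-J1 in SAS and to 0.211 between the lines. It turned the line differences of MT-TI to 0.27, MT-TW to 0.29 and MT-TL2 to 0.57, none of them called. Those of MT-TC turned to -0.56 and of MT-TY to -1.08, both called (edgeR). Counts without regard to strand take in reads of the opposite strand by construction. Without the 2 SAS libraries with Cal33 transcripts the opposite-strand share under GSK-J1 in SAS was -0.0213 points. The causes of the other changes were not tested.

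Leaving out each library in turn gave 0 to 8 calls for 4 Gy and 0 to 7 for the combination against GSK-J1 in Cal33, and 16 to 23 between the lines. The shares of all genes called in these refits are not given. Of 672 such values of the called single genes, 577 kept the call, 95 lost it and 0 reversed. Each call between the lines was kept in 20 to 24 of 24 values. The irradiation calls in Cal33 were kept less often. For 4 Gy against sham, MT-ATP6, MT-ATP8, MT-CO2, MT-CO3 and MT-ND6 kept theirs in 2, 2, 7, 3 and 8 of 12 values. For the combination against GSK-J1 they did so in 2, 7, 9, 5 and 2 of 12. The Cal33 share difference after 4 Gy ranged from -3.25 to -2.52 points. Under GSK-J1 the SAS library share ranged from -0.118 to 0.360 points, the rRNA share from -0.750 to 0.861 in Cal33 and -1.51 to 0.128 in SAS, the light-strand share from -0.0270 to -0.0144 in Cal33 and -0.00584 to 0.0179 in SAS, and the SAS opposite-strand share from -0.0436 to 0.0725. The light-strand share after 4 Gy in Cal33 ranged from -0.00118 to 0.0114, and the opposite-strand share between the lines from -0.103 to 0.0260. Of 339 alternatives to the 33 called single-gene results, 307 kept the call, 27 lost it and 5 reversed. The counts of the tRNAs limit what can be said of them.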
